A study of Mus musculus with 12 samples.

Results

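The genes examined here were 39 cell cycle and DNA replication genes of the mouse, chosen by name and located in the count tables by their Ensembl gene identifiers. All 39 were among the 46983 genes of the tables, of which 27093 had at least 1 read count in the 12 samples. They comprised 25 genes of mitosis and cytokinesis (called mitotic genes below), 12 genes of DNA replication and 2 transcription factors, *E2f1* and *Foxm1*. In edgeR, none of the 39 differed between the groups past an adjusted p of 0.1 in any of the 8 comparisons. EdgeR called 0.0% of all tested genes in each of them, so this result is not particular to the 39. A joint test over the 4 groups called none of them either, beside 0.0% of all tested genes. *Ube2c* and *Mcm5* were the 2 members with an unadjusted p under 0.05 there, beside 6.0% of all tested genes. At the median of the mitotic and of the replication genes, most of the variation lay between animals of the same group. The same held at the median of all tested genes. The *Mcm2* to *Mcm7* subunits were highest in 1 library of the diabetes-exposed *Hif1a*+/- group.

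RNA came from the left ventricle (LV) of 12-week-old FVB offspring, sequenced as 3′ libraries, which read the end of each transcript. Diabetes was induced in *Wt* females with streptozotocin before mating to *Hif1a*+/- males, which carry the *Hif1a*tm1jhu null allele in every cell, so that all 4 groups had *Wt* mothers. The groups were *Wt* and *Hif1a*+/- offspring from a non-diabetic pregnancy and *Wt* and *Hif1a*+/- offspring from a diabetic pregnancy, with 3 animals each, drawn from several litters. The labels name each animal by a number, which is used here. Every diabetes-exposed animal therefore met maternal diabetes in the womb, and what streptozotocin itself did to the mother cannot be told apart from the diabetes.

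A dividing cell first licenses its replication origins by loading the MCM helicase, copies its DNA with the help of the sliding clamp PCNA and of enzymes that make nucleotides, and then condenses, aligns and separates the chromosomes under cyclin-dependent, Polo and Aurora kinases. Most adult cardiomyocytes no longer divide, and in an adult ventricle transcripts of this programme come largely from other cells. In bulk tissue, fewer dividing cells and less RNA per dividing cell cannot be told apart. Promoters of mitotic genes commonly carry a cell cycle genes homology region (CHR) and CCAAT boxes, and promoters of replication genes commonly carry E2F sites.

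Those promoter elements were looked for in the RefSeq promoter windows (build GRCm38.p6, 250 bases before to 50 bases after the start), which held 32 of the 39 members. The CHR was searched as TTTGAA or TTCGAA, the CCAAT box as CCAAT, and the E2F site as TTTGGCGC, TTTCGCGC, TTTCCCGC or TTTGCCGC, each on both strands. These E2F letters can overlap one another when they face each other. Some of the members named below are shown, with the bases from 150 to 10 before the start on the gene's strand and the matches in capitals. *Ube2c*, *Top2a* and *Mki67* carry CHR and CCAAT letters, whereas *Mcm5* and *Mcm6* carry E2F and CCAAT letters. *Mcm7*, which is not shown, has CHR, CCAAT and E2F letters in its window.
Ube2c, chr2:164769779-164769919, plus strand: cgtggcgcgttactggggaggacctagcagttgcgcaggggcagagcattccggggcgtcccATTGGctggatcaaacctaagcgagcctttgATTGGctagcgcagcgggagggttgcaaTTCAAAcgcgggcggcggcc
Top2a, chr11:99024199-99024339, minus strand: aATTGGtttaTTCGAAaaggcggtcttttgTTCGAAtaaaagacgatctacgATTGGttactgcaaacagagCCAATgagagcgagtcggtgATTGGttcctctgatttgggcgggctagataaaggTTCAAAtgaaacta
Mki67, chr7:135716389-135716529, minus strand: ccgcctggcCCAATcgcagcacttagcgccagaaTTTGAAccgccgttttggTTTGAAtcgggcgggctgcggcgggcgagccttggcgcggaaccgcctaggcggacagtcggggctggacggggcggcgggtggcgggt
Mcm5, chr8:75109359-75109499, plus strand: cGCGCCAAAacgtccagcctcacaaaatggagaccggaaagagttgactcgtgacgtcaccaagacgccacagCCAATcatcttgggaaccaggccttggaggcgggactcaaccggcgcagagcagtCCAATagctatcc
Mcm6, chr1:128359715-128359855, minus strand: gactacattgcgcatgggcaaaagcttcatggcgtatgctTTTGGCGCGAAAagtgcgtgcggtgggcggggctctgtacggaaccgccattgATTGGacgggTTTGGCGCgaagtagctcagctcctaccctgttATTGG

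A CHR match was present in 17 of the 21 mitotic members with a promoter window (81.0%) and in 2 of the 10 replication members (20.0%), beside 16.0% of the 10912 tested genes with a window. An E2F match was present in 1 of the 21 mitotic members (4.76%) and in 4 of the 10 replication members (40.0%), beside 4.57% of the tested genes. The 4 were *Mcm3*, *Mcm5*, *Mcm6* and *Mcm7*. The CCAAT box was found in 85.7% of the mitotic and 80.0% of the replication members, beside 42.3% of the tested genes. These shares describe letters in the window, and no binding was measured.

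**Figure D1:**
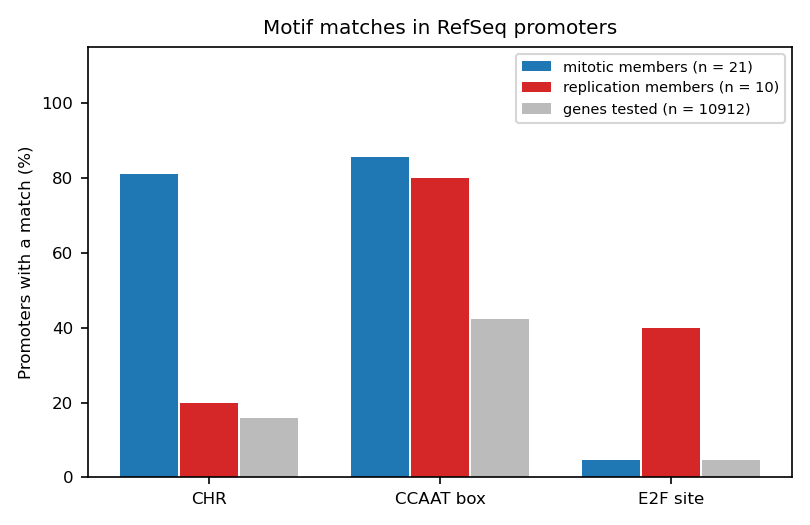
Bars give the percentage of RefSeq promoter windows with at least 1 match to the CHR, the CCAAT box or the E2F site, for mitotic members (21 windows), replication members (10 windows) and tested genes (10912 windows). The CHR bar is tallest for the mitotic members (81.0%), and the E2F bar for the replication members (40.0%).

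The libraries held 16132442 to 39812939 counts assigned to genes. All 39 members passed the filter on low counts, which kept 14706 genes, although their depth was small, with between 2 counts (*Ccnb1* in *Wt* diabetic animal 80) and 1349 counts (*Pcna*) per library. Levels are given as CPM, the count divided by the library total after scaling by the trimmed mean of M-values (TMM) and set to a common total. *Hif1a* itself was at 55.7, 57.0 and 71.8 CPM in *Wt* non-diabetic, 47.9, 59.3 and 58.6 CPM in *Wt* diabetic, 89.4, 78.8 and 88.9 CPM in *Hif1a*+/- non-diabetic, and 70.5, 64.8 and 81.5 CPM in *Hif1a*+/- diabetic LVs. It was thus not lower in the *Hif1a*+/- groups. A 3′ library may read the null allele too, and where the deleted part lies is not given in the sources used here, so this level does not check the genotypes.

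The library labelled *Hif1a*+/- diabetic 72 differed from the other 11 in its sex-linked genes. It held 3599 counts of *Xist* and 26 of the Y-linked genes, whereas the other libraries held 5 to 176 counts of *Xist* and 3566 or more Y-linked counts. By these counts library 72 reads as female and the other 11 as male, so that sex was mixed only within the *Hif1a*+/- diabetic group. The part of sex in the levels of animal 72 was not tested. The labels call every animal female and the study states that males were used, and neither fits these counts for all 12 libraries. Results that rest on this library are therefore given with and without it. Markers of cardiomyocytes made up 9.65% to 10.29% of the counts of each library. All markers of the other cell types examined had a count in at least 1 library.

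The mitotic genes spread more widely between the animals than the replication genes. The ratio between the highest and lowest of the 12 animals was 4.11 at the median of the mitotic genes and 1.97 at that of the 12 replication genes. Depth differed too, with 2 to 432 counts per library for the mitotic genes and 26 to 1349 for the replication genes. Low counts widen such ratios, and the part of depth in this contrast was not tested. The groups accounted for 15.4% of the sum of squares of log2(CPM + 0.5) at the median of the mitotic genes, 36.2% at that of the replication genes, and 25.2% at that of all tested genes. They accounted for most of it in *Mcm4* (65.2%), *Ube2c* (58.1%), *Mcm5* (58.0%), *Tyms* (51.2%) and *Mcm7* (50.6%). The share of such genes over all tested genes was not counted.

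*Mki67*, the gene of the proliferation antigen Ki-67, which coats mitotic chromosomes (GENCODE M21, chr7:135689784-135716361, minus strand), was at 7.72, 10.3 and 8.66 CPM in *Wt* non-diabetic animals 25, 42 and 89. It was at 8.90, 4.87 and 1.77 CPM in *Wt* diabetic animals 50, 7 and 80. In *Hif1a*+/- non-diabetic animals 14, 32 and 44 it was at 3.27, 6.70 and 9.55 CPM. The *Hif1a*+/- diabetic animals 66, 72 and 77 had 5.27, 6.87 and 5.70 CPM, all below the *Wt* non-diabetic animals and within the range of the other groups.

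*Top2a*, which encodes the topoisomerase that untangles replicated chromosomes (chr11:98992943-99024189, minus strand), varied likewise. Its levels were 3.61, 8.50 and 6.42 CPM in *Wt* non-diabetic, 6.60, 4.39 and 1.89 CPM in *Wt* diabetic, 2.38, 3.49 and 8.20 CPM in *Hif1a*+/- non-diabetic, and 4.85, 6.73 and 5.30 CPM in *Hif1a*+/- diabetic LVs, in the same order of animals. All 4 groups overlapped.

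The same few animals stood at the ends of the range for many mitotic genes. *Wt* diabetic animal 80 was the lowest of the 12 for 16 of the 25, beside 12.5% of all tested genes. *Hif1a*+/- non-diabetic animal 44 was the highest for 14 of the 25, beside 5.41% of all tested genes. Within the *Wt* diabetic group, animal 50 was the highest and animal 80 the lowest for 24 of the 25 mitotic genes (96.0%) and for 16.5% of all tested genes. Within the *Hif1a*+/- non-diabetic group, animal 44 was the highest and animal 14 the lowest for 20 of the 25 (80.0%), beside 21.0% of all tested genes. In the *Wt* non-diabetic group, animal 42 was the highest and animal 25 the lowest for 16 of the 25 (64.0%), beside 13.9%. These counts describe the animals, since genes measured in the same library are not independent.

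**Figure D2:**
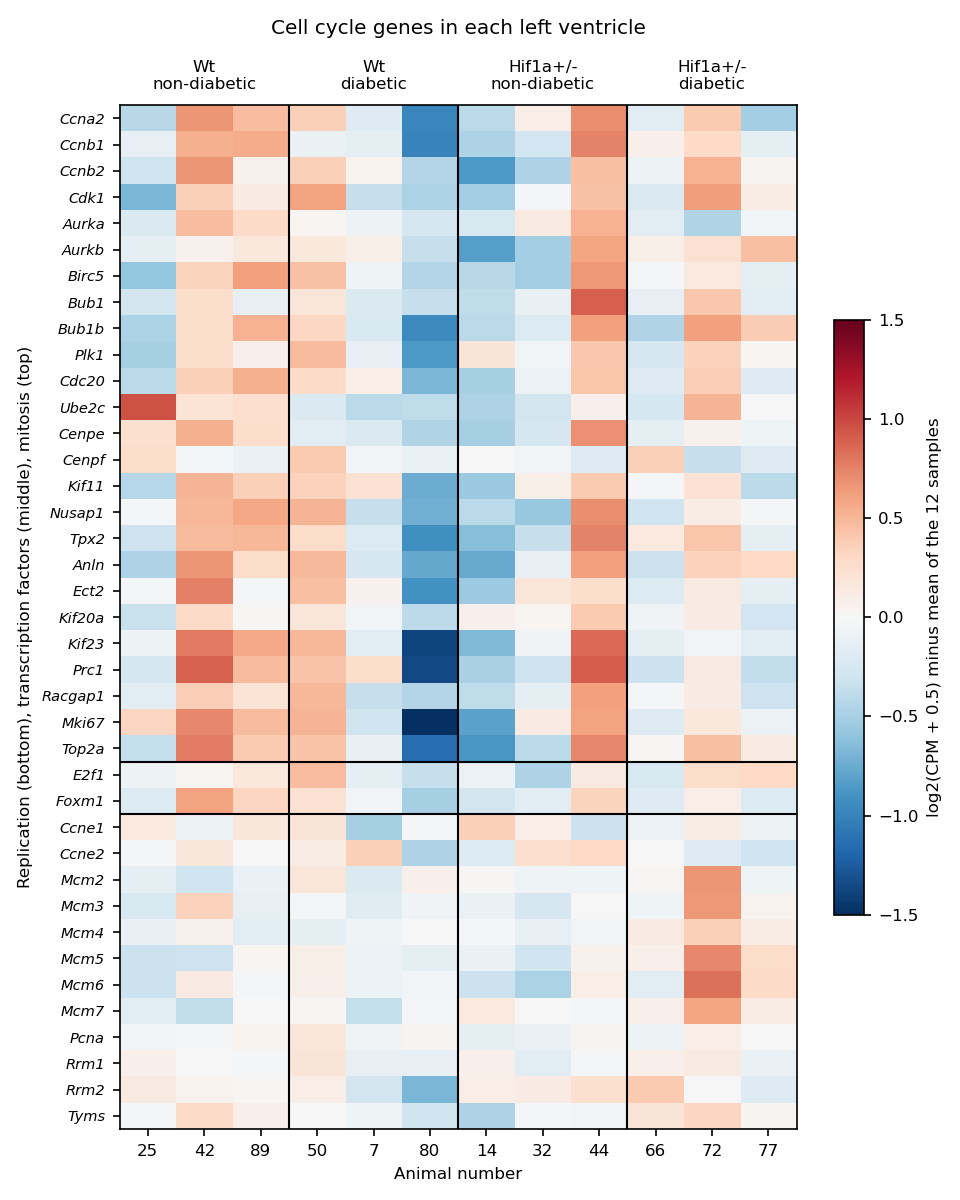
Each cell gives log2(CPM + 0.5) of a member (row) in an animal (column) minus the member's mean over the 12 animals, red for higher and blue for lower, with the 25 mitotic genes on top, the 2 transcription factors in the middle and the 12 replication genes below. Animal 80 is blue and animals 42 and 44 are red across most mitotic rows, while the *Mcm2* to *Mcm7* rows are reddest in animal 72.

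The summed level of the 25 mitotic genes was 52.4, 81.8 and 71.2 CPM in *Wt* non-diabetic, 74.7, 49.7 and 30.3 CPM in *Wt* diabetic, 37.7, 49.9 and 84.3 CPM in *Hif1a*+/- non-diabetic, and 52.9, 66.2 and 51.8 CPM in *Hif1a*+/- diabetic animals. Every group therefore overlapped every other. The *Wt* diabetic and the *Hif1a*+/- non-diabetic groups each held a low and a high animal, whereas the *Hif1a*+/- diabetic animals lay close together.

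Among the cyclins and their kinase, *Ccnb1*, the regulatory cyclin of mitotic entry, had the widest range, from 0.114 CPM in *Wt* diabetic animal 80 to 1.56 CPM in *Hif1a*+/- non-diabetic animal 44. *Ccna2* and *Ccnb2*, further mitotic cyclins, ranged from 0.857 to 3.82 CPM and from 0.428 to 2.18 CPM. *Cdk1*, the kinase they activate, ranged from 1.37 to 4.14 CPM. *Ccne1* and *Ccne2*, the cyclins of entry into S phase, ranged from 1.09 to 2.38 CPM and from 2.11 to 4.12 CPM. *Ccne1* did not share the order of animals of the mitotic genes. *Ccne2* had the same highest and lowest animals as most mitotic genes in both non-diabetic groups and was lowest in animal 80. Its highest animal in the *Wt* diabetic group was a different one.

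Among the mitotic kinases and checkpoint genes, *Aurka* and *Aurkb*, the Aurora kinases of the spindle pole and the centromere, ranged from 0.880 to 2.21 CPM and from 0.312 to 1.66 CPM. *Plk1*, the Polo kinase, *Bub1* and *Bub1b*, which signal unattached kinetochores, and *Birc5*, the survivin subunit of the Aurora B complex, had their highest value in animal 50, 44, 44 and 44, respectively. Of the genes of anaphase proteolysis, *Cdc20*, an activator of the anaphase-promoting complex, ranged from 1.14 CPM in animal 80 to 3.31 CPM in animal 89. Exons of *Cdc20* overlap *Elovl1* on the other strand, which was at 23.7 to 32.0 CPM.

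The other gene of this role was *Ube2c*, which encodes the ubiquitin-conjugating enzyme of the anaphase-promoting complex (chr2:164769898-164778822, plus strand). *Ube2c* differed from most mitotic genes in its order of animals in both *Wt* groups. It was at 4.80, 2.64 and 2.74 CPM in *Wt* non-diabetic, 1.85, 1.57 and 1.60 CPM in *Wt* diabetic, 1.48, 1.75 and 2.36 CPM in *Hif1a*+/- non-diabetic, and 1.77, 3.39 and 2.21 CPM in *Hif1a*+/- diabetic LVs. The *Wt* non-diabetic animals were above all *Wt* diabetic and all *Hif1a*+/- non-diabetic animals, and animal 25 was the highest of the 12. Library 25 also had the highest summed erythroid markers, 7345 CPM against 185 to 1773 CPM in the others, and the highest summed neutrophil markers, 26.2 CPM against 1.36 to 8.79 CPM. All 8 markers of each list had a count in at least 1 library, and 5 and 3 of them, respectively, in every library. Their part in the *Ube2c* level was not tested. Exons of *Ube2c* overlap *Tnnc2* on the other strand, which had 2 counts or fewer in each library.

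Of the spindle and kinetochore genes, *Cenpe*, a kinetochore motor (chr3:135212537-135273611, plus strand), was at 1.31, 1.73 and 1.35 CPM in *Wt* non-diabetic, 0.877, 0.817 and 0.628 CPM in *Wt* diabetic, 0.584, 0.789 and 1.96 CPM in *Hif1a*+/- non-diabetic, and 0.899, 1.10 and 0.972 CPM in *Hif1a*+/- diabetic LVs. The *Wt* non-diabetic animals lay above both diabetic groups, and animal 44 was above them all. *Kif11*, *Tpx2* and *Nusap1*, which build the spindle, had their lowest value in animal 80. *Cenpf*, a kinetochore protein at 6.60 to 11.4 CPM, was highest in animal 50 and lowest in animal 72.

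The genes of cytokinesis showed some of the widest spread. *Prc1*, which bundles the central spindle, ranged from 0.286 CPM in animal 80 to 3.27 CPM in animal 44, and *Kif23*, a central spindle motor, from 0.514 to 4.22 CPM in the same animals. *Racgap1*, its partner, ranged from 1.89 to 4.48 CPM, again between these 2 animals. *Anln*, *Ect2* and *Kif20a* ranged from 0.971 to 3.46, from 0.343 to 2.18 and from 1.60 to 3.12 CPM. The exons of *Prc1* overlap *Rccd1*, and those of *Kif20a* overlap *Cdc23*, on the other strand. Exons of *Ccna2*, *Ccne2*, *Plk1* and *Nusap1* also overlap genes on the other strand. Whether counting used the strand is not given in the sources used here.

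**Figure D3:**
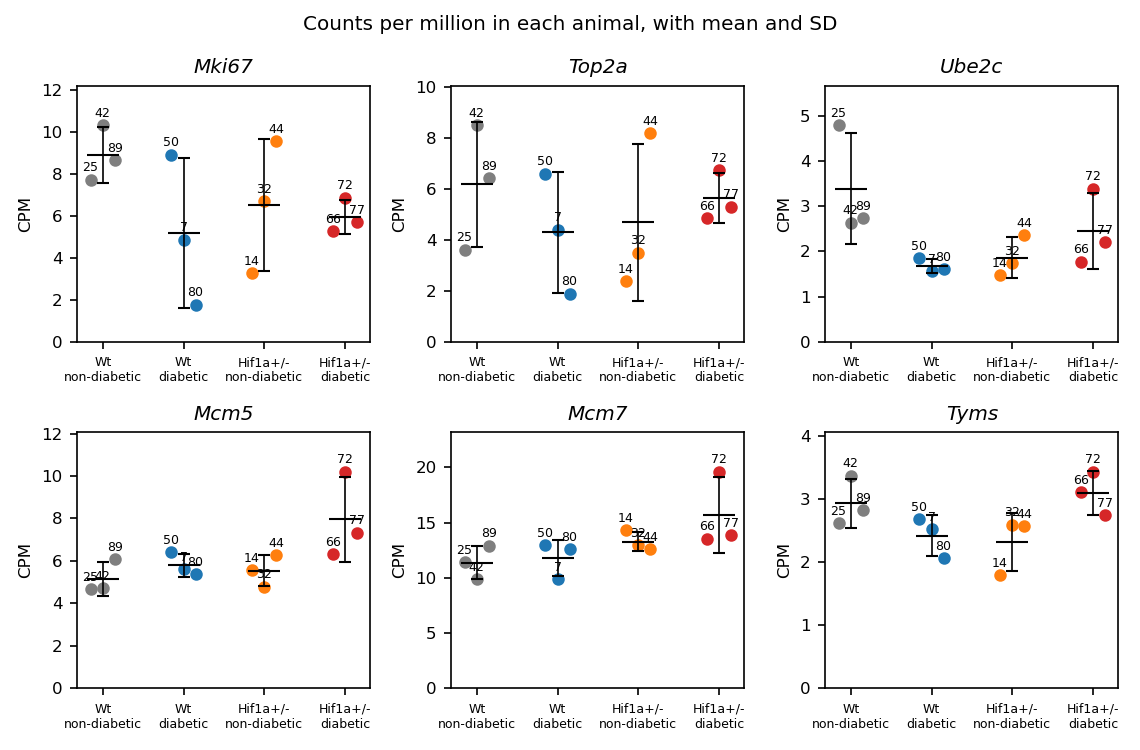
CPM of 6 members in each animal (points, labelled with the animal number), with the mean (bar) and SD (whiskers) of the 3 animals of a group. *Mki67* and *Top2a* span from below 2 CPM in animal 80 to above 8 CPM in animals 42 and 44, *Ube2c* is highest in animal 25, and *Mcm5* and *Mcm7* are highest in animal 72.

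The replication genes were steadier. *Pcna*, the sliding clamp, ranged from 33.1 to 41.4 CPM and *Rrm1*, the large subunit of ribonucleotide reductase, from 15.8 to 20.4 CPM, with all groups overlapping. *Rrm2*, its small subunit, ranged from 1.71 to 4.16 CPM. *Tyms*, which makes thymidylate (chr5:30058202-30073617, minus strand), was at 2.62, 3.37 and 2.82 CPM in *Wt* non-diabetic, 2.68, 2.52 and 2.06 CPM in *Wt* diabetic, 1.79, 2.59 and 2.56 CPM in *Hif1a*+/- non-diabetic, and 3.11, 3.43 and 2.74 CPM in *Hif1a*+/- diabetic LVs. The *Hif1a*+/- diabetic animals were above all *Wt* diabetic and all *Hif1a*+/- non-diabetic animals and overlapped the *Wt* non-diabetic group. *Tyms*, *Pcna*, *Ccnb1* and *Ccnb2* have named pseudogenes that could share reads with them. *E2f1*, a factor of S phase entry, and *Foxm1*, a factor of mitotic genes, ranged from 1.13 to 2.58 and from 1.43 to 3.64 CPM.

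All 6 subunits of the MCM helicase had their highest group mean in the *Hif1a*+/- diabetic group, as did some other members, such as *Tyms*, *Cdk1* and *Rrm1*. For *Mcm2* this rested on animal 72, since animals 66 and 77 (8.27 and 7.77 CPM) were below the *Wt* diabetic mean of 8.28 CPM. *Mcm3* was at 8.19 and 8.97 CPM in animals 66 and 77, on either side of the *Wt* non-diabetic mean of 8.72 CPM. *Mcm5* (chr8:75109569-75128439, plus strand) was at 4.67, 4.73 and 6.09 CPM in *Wt* non-diabetic, 6.41, 5.62 and 5.37 CPM in *Wt* diabetic, 5.57, 4.79 and 6.29 CPM in *Hif1a*+/- non-diabetic, and 6.32, 10.2 and 7.33 CPM in *Hif1a*+/- diabetic LVs. The *Hif1a*+/- diabetic animals were above both non-diabetic groups and overlapped the *Wt* diabetic group. *Mcm6* (chr1:128331590-128359664, minus strand) was at 4.88, 10.3 and 6.94 CPM in the *Hif1a*+/- diabetic animals and between 3.89 and 6.18 CPM in the other 9.

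*Mcm7* (chr5:138164583-138172422, minus strand) was at 13.6, 19.6 and 13.9 CPM in the *Hif1a*+/- diabetic animals and between 9.87 and 14.3 CPM in the others. *Mcm4* was at 12.6, 14.8 and 12.5 CPM in the *Hif1a*+/- diabetic animals, above all other 9, which lay between 10.1 and 12.1 CPM. *Mcm2* and *Mcm3* reached 13.2 and 13.8 CPM in animal 72 and 9.27 and 11.0 CPM at most elsewhere. Animal 72 was the highest of the 12 for each of the 6 subunits. *Mcm7* shares exons with *Mir25* and *Mir93* on its strand and with *Ap4m1* and *Cops6* on the other.

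The first comparison asked how exposure to maternal diabetes altered these genes in *Hif1a*+/- hearts. None of the 39 members passed an adjusted p of 0.1 in *Hif1a*+/- diabetic against *Hif1a*+/- non-diabetic LVs in edgeR, beside 0.0% of the 14706 genes, none in DESeq2, which called 1.44%, and none in limma-voom, which called 6.37%. At an unadjusted p under 0.05, 3 members were higher and 0 lower, beside 5.72% and 6.28% of all tested genes. The 3 were *Mcm5*, higher by 0.51 ± 0.19 (log2 fold change ± SE, adjusted p = 0.352), *Mcm6*, by 0.62 ± 0.25 (adjusted p = 0.371), and *Mcm4*, by 0.28 ± 0.11 (adjusted p = 0.379, edgeR). *Mcm4*, *Mcm5* and *Tyms* were the 3 members above all animals of the other group, beside 11.2% of tested genes, and 0 members were below them, beside 13.2%.

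The median log2 fold change of the 39 was 0.04, with 21 higher and 18 lower, beside -0.01 for all tested genes. The mitotic genes had a median of -0.07 (11 of 25 higher) and the 6 MCM subunits one of 0.33 (6 of 6 higher). Without animal 72, the MCM median was 0.16, 6 of 6 were still higher, 0 members had an unadjusted p under 0.05, beside 8.58% of all genes tested in that fit, and *Mcm5* and *Mcm6* were higher by 0.30 ± 0.18 and 0.32 ± 0.22. Without animal 44, the mitotic median was 0.55 with 22 of 25 higher, so that its sign depended on this animal. Without animal 72 the shift went the other way. *Ccnb2*, *Aurkb*, *Ube2c*, *Cenpf* and *Top2a* (0.13 ± 0.51) were then higher, and all other mitotic genes were lower, such as *Mki67* (-0.23 ± 0.49). Summed macrophage and monocyte markers were 741, 606 and 902 CPM in the *Hif1a*+/- diabetic animals 66, 72 and 77 and 304 to 683 CPM in the other 9, and adventitial and epicardial markers 222, 174 and 385 CPM against 96.3 to 138 CPM. Animal 72 had the highest fibroblast sum, 2361 CPM, with 1463 to 2217 CPM in the others. Their part in the MCM levels was not tested.

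**Figure D4:**
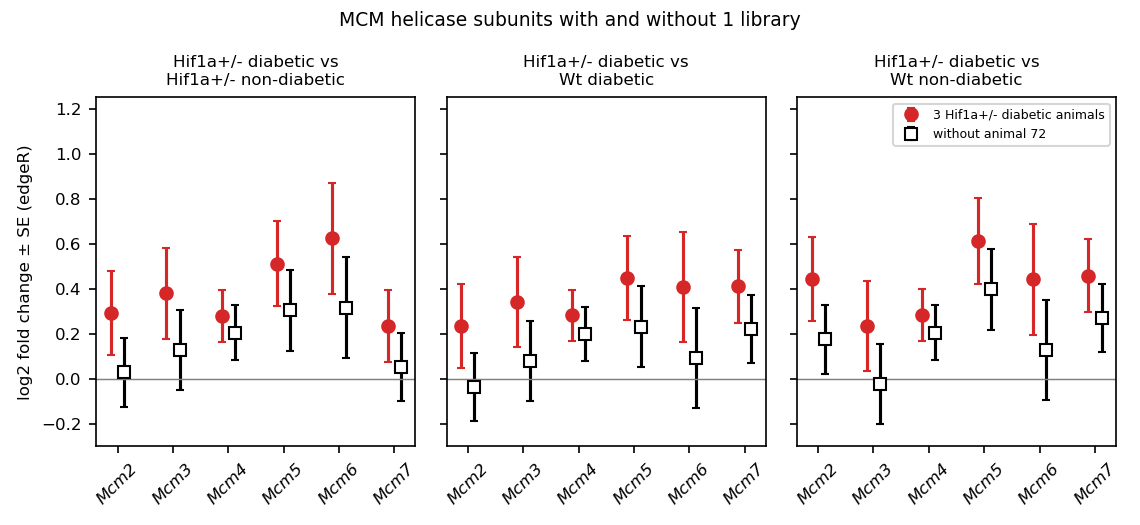
Points give the edgeR log2 fold change of *Mcm2* to *Mcm7* in *Hif1a*+/- diabetic LVs against each other group, with whiskers of 1 SE, from all 3 animals (red circles) and without animal 72 (open squares). The red circles lie above 0 in the 3 panels, and every square lies below its circle.

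The next comparison was against *Wt* LVs from diabetic pregnancies, where the groups differed in genotype. Whether their animals shared litters is not given in the sources used here. In edgeR 0 members passed, beside 0.0% of all tested genes, 0 in DESeq2, beside 0.155%, and 0 in limma-voom, beside 0.0068%. Taken at an unadjusted p under 0.05, 3 members were higher, beside 2.96% of all tested genes, and 0 lower, beside 2.39%. *Mcm7* was higher by 0.41 ± 0.16, *Mcm4* by 0.28 ± 0.11 and *Mcm5* by 0.45 ± 0.19, each with an adjusted p of 0.862 in edgeR. Without animal 72 these were 0.22 ± 0.15, 0.20 ± 0.12 and 0.23 ± 0.18, and 0 members had an unadjusted p under 0.05, beside 4.28% of all genes tested in that fit. The median of the 39 was 0.18 with 28 higher, beside -0.01 for all tested genes, and was -0.01 with 19 higher without animal 72 and -0.04 with 18 higher without animal 80. The 6 MCM subunits had a median of 0.37 with all 6 higher, and of 0.14 with 5 of 6 higher without animal 72. The mitotic genes had a median of 0.15 (17 of 25 higher), which was -0.07 without animal 72 and -0.18 without animal 80. *Cenpe*, *Mcm4*, *Mcm7* and *Tyms* were above all *Wt* diabetic animals, beside 4.32% of tested genes, and 0 members were below them, beside 3.62%.

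Against *Wt* LVs from non-diabetic pregnancies, which differed in genotype and exposure, 0 members passed in edgeR, beside 0.0%, 0 in DESeq2, beside 0.453%, and 0 in limma-voom, beside 0.0136%. Before adjustment, at p under 0.05, 4 members were higher, beside 4.09% of all tested genes, and 0 lower, beside 4.77%. The 4 were *Mcm5* (0.61 ± 0.19, 1.53-fold, adjusted p = 0.473), *Mcm7* (0.46 ± 0.16, adjusted p = 0.502), *Mcm4* (0.28 ± 0.11, adjusted p = 0.528) and *Mcm2* (0.44 ± 0.19, adjusted p = 0.545, edgeR). Of the mitotic genes 20 of 25 were lower, with a median of -0.27, and all 6 MCM subunits were higher, with a median of 0.44.

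Without animal 72, the MCM median was 0.19 with 5 of 6 higher, and the log2 fold changes of *Mcm5*, *Mcm7*, *Mcm4* and *Mcm2* were 0.40 ± 0.18, 0.27 ± 0.15, 0.20 ± 0.12 and 0.17 ± 0.15. An unadjusted p under 0.05 then remained for 1 higher member, *Mcm5*, and was reached by 1 lower member, *Ube2c* (-0.76 ± 0.30), beside 7.18% of all genes tested in that fit. *Cenpe* and *Mki67* were below all *Wt* non-diabetic animals, beside 7.11% of tested genes, and *Mcm2*, *Mcm4*, *Mcm5* and *Mcm7* above them, beside 7.47%. The 3 comparisons of the *Hif1a*+/- diabetic group share those 3 animals and are not independent.

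Exposure to maternal diabetes in *Wt* hearts left 0 members past the threshold in edgeR, beside 0.0% of all tested genes, 0 in DESeq2, beside 0.0148%, and 0 in limma-voom, beside 0.0%. At an unadjusted p under 0.05, 2 members were lower, beside 1.61% of all tested genes, and 0 higher, beside 1.17%. *Ube2c* was at 0.499-fold of its unexposed level (SE 0.30 on the log2 scale, adjusted p = 1 in edgeR) and *Cenpe* had a log2 fold change of -0.90 ± 0.38. *Ccnb1*, the next by p, had one of -1.17 ± 0.56, from the lowest counts of any member. Both *Ube2c* and *Cenpe* were below all *Wt* non-diabetic animals, beside 3.4% of tested genes, and 0 members were above them, beside 2.14%.

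The median of the 25 mitotic genes was -0.41 with 24 lower, while that of the 12 replication genes was 0.01 with 7 higher, and 51.6% of all tested genes were higher. Without animal 80 the mitotic median was -0.12 with 19 of 25 lower. Without animal 25 it was -0.60, and the log2 fold change of *Ube2c* was -0.69 ± 0.29. Animal 80 also had the highest macrophage and monocyte sum of the *Wt* animals, 683 CPM, with 401 to 553 CPM in the others, and its part was not tested.

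The *Hif1a*+/- genotype without diabetes was compared in the non-diabetic groups, where 0 members passed in edgeR, beside 0.0%, 0 in DESeq2, beside 0.00369%, and 0 in limma-voom, beside 0.0%. Before adjustment, at p under 0.05, 1 member was lower, beside 0.653% of all tested genes, and 0 higher, beside 0.306%. This was *Ube2c* (-0.85 ± 0.30, adjusted p = 1 in edgeR). *Tyms* (-0.36 ± 0.21) and *Mcm7* (0.22 ± 0.16) were next. Without animal 25, *Ube2c* had a log2 fold change of -0.54 ± 0.29.

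Of the mitotic genes, 22 of 25 were lower, with a median of -0.30. Without animal 44 the median was -0.87, 23 of 25 were lower and 9 had an unadjusted p under 0.05, beside 1.21% of all genes tested in that fit. *Ube2c* and *Tyms* were below all *Wt* non-diabetic animals, beside 2.26% of tested genes, and *Mcm2* above them, beside 2.55%. This comparison shares the *Wt* non-diabetic animals with 2 of those above.

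**Figure D5:**
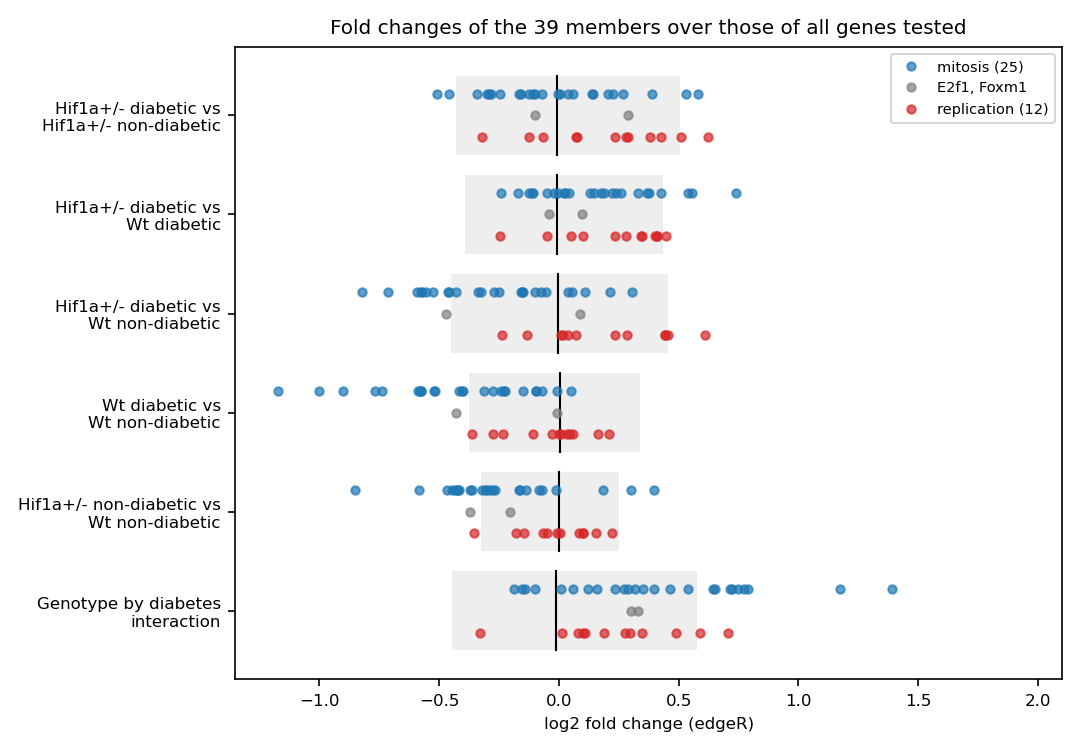
Points give the edgeR log2 fold change of each member in 6 comparisons, blue for mitotic genes, grey for *E2f1* and *Foxm1* and red for replication genes, over a grey box from the 5th to the 95th percentile of all 14706 tested genes with their median as a line. Blue points lie left of 0 for 24 of 25 genes in *Wt* diabetic against *Wt* non-diabetic LVs, and the red MCM points lie right of it where *Hif1a*+/- diabetic LVs are compared.

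The genotype by diabetes interaction asked whether exposure altered the members differently in the genotypes. Again 0 members passed in edgeR, beside 0.0%, 0 in DESeq2 and 0 in limma-voom, beside 0.0% in each. An unadjusted p under 0.05 was found for 2 members that had a positive interaction, beside 1.49% of all tested genes, and 0 a negative one, beside 1.03%. They were *Ube2c* at 1.39 ± 0.43 and *Tyms* at 0.70 ± 0.29, both with an adjusted p of 0.998 in edgeR. *Mcm4* was next, at 0.28 ± 0.16. Of the 39, 34 had a positive interaction with a median of 0.30, where 47.7% of all tested genes were positive. Without animal 72 the median was 0.18 with 28 positive, without animal 80 it was 0.12 with 27 positive, and without animal 44 it was 0.60 with 35 positive, and *Ube2c* was at 1.08 ± 0.40 without animal 25.

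Averaged over genotypes, diabetic against non-diabetic pregnancy gave 0 members past the threshold, beside 0.0%, in edgeR, 0 in DESeq2, beside 1.46%, and 0 in limma-voom, beside 0.265%. At an unadjusted p under 0.05, 0 members were lower, beside 5.82% of all tested genes, and 1 was higher, beside 5.47%. This was *Mcm5* at 0.34 ± 0.14 (adjusted p = 0.402 in edgeR), and 0.23 ± 0.12 without animal 72. *Aurka* was at -0.46 ± 0.22 and *Cenpe* at -0.53 ± 0.27. Averaged over pregnancies, *Hif1a*+/- against *Wt* gave 0 members in edgeR, beside 0.0%, 0 in DESeq2, beside 0.0259%, and 0 in limma-voom, beside 0.0%. At an unadjusted p under 0.05, 0 members were lower, beside 1.29%, and 1 was higher, beside 1.4%, which was *Mcm7* at 0.32 ± 0.12 (adjusted p = 0.999 in edgeR) and 0.22 without animal 72. *Mcm5* was at 0.27 ± 0.14 and *Mcm4* at 0.14 ± 0.08.

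The related lists of the pathway were described in the same way. Of 45 other DNA replication genes, 43 were tested and 0 passed in edgeR in any comparison, beside 0.0% of all tested genes. Between 0 and 5 had an unadjusted p under 0.05, depending on the comparison. Over all tested genes, 0.306% to 5.72% were higher and 0.653% to 6.28% lower at that p. In *Hif1a*+/- diabetic against *Hif1a*+/- non-diabetic LVs 33 of the 43 were higher with a median of 0.17, and 5 had an unadjusted p under 0.05, all higher, where 49.0% of all tested genes were higher and 5.72% were higher at that p. Animal 72 was the highest of the 12 for 16 of the 43, beside 9.67% of all tested genes. Without it the median was 0.08 with 31 of 43 higher, and 4 (9.3%) had an unadjusted p under 0.05, beside 8.58% of all genes tested in that fit. *Lig1*, which joins the fragments of the lagging strand, had the smallest p (0.70 ± 0.21, adjusted p = 0.29). It was at 3.12, 2.65 and 4.32 CPM in *Hif1a*+/- non-diabetic and 4.62, 5.94 and 5.92 CPM in *Hif1a*+/- diabetic LVs, which did not overlap, and its log2 fold change without animal 72 was 0.65 ± 0.24. Limma-voom with sample weights called 4 of the 43 there, beside 6.37% of all tested genes, and DESeq2 called 0, beside 1.44%. *Ung*, which removes uracil from DNA, was the replication list's first gene by p in 3 comparisons, with 0.38 ± 0.12 in *Hif1a*+/- diabetic against *Wt* non-diabetic LVs, 0.22 ± 0.12 in *Wt* diabetic against *Wt* non-diabetic LVs and 0.30 ± 0.08 for diabetes averaged over genotypes, where DESeq2 called it (adjusted p = 0.0914).

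*Prim2*, a primase subunit, was first in *Hif1a*+/- diabetic against *Wt* diabetic LVs (0.48 ± 0.17). *Mcm10*, an initiation factor, was first in *Hif1a*+/- non-diabetic against *Wt* non-diabetic LVs (-0.95 ± 0.44). *Lig1* was first again for the interaction (0.89), and *Gins4*, a helicase cofactor, for genotype averaged over pregnancies (0.17).

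Of 58 other mitosis genes, 54 were tested and 0 passed in edgeR, beside 0.0% of all tested genes. DESeq2 and limma-voom also called 0, beside at most 1.46% and 6.37% of all tested genes. Between 0 and 2 had an unadjusted p under 0.05, depending on the comparison. Over all tested genes, 0.306% to 5.72% were higher and 0.653% to 6.28% lower at that p. In *Wt* diabetic against *Wt* non-diabetic LVs 47 of the 54 were lower, with a median of -0.36, where 51.6% of all tested genes were higher. Animal 80 was the lowest of the 12 for 25 of the 54, beside 12.5% of all tested genes, and without it the median was -0.18 with 44 lower. *Kif18a*, a kinesin that limits chromosome movement, had the smallest p (-0.53 ± 0.23). *Kif18a* was also first in *Hif1a*+/- non-diabetic against *Wt* non-diabetic LVs (-0.57 ± 0.23) and for the interaction (0.84). *Cenpa*, the centromeric histone, was first in *Hif1a*+/- diabetic against *Wt* non-diabetic LVs (-0.42 ± 0.14) and in both averaged comparisons (-0.21 in each). *Smc4*, a condensin subunit, and *Tacc3*, a spindle protein, were first in *Hif1a*+/- diabetic LVs against *Hif1a*+/- non-diabetic (-0.27) and against *Wt* diabetic LVs (0.42).

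None of the 8 cyclins and kinases of G1 and none of the 27 tested cell cycle brakes passed in edgeR, beside 0.0% of all tested genes. Before adjustment, at p under 0.05, 0 of the G1 genes and 0 to 4 of the brakes passed, depending on the comparison. Over all tested genes, 0.306% to 5.72% were higher and 0.653% to 6.28% lower at that p. DESeq2 called 0 of them, beside at most 1.46% of all tested genes. Limma-voom called 1 brake, in *Hif1a*+/- diabetic against *Hif1a*+/- non-diabetic LVs, beside 6.37% of all tested genes. In that comparison 4 of the 8 G1 genes and 14 of the 27 brakes were higher. *Rbl2*, a pocket protein of quiescent cells, had the smallest p there (-0.32 ± 0.10, adjusted p = 0.299), and *Ccne2* was the first G1 gene (-0.32). In the other comparisons the first G1 gene was *Ccne2*, *Cdk4*, *Ccnd3* or *Cdk2* with log2 fold changes between -0.33 and 0.16, and the first brake was *Wee1*, *Btg1*, *Cdkn2c* or *Ccng2* with values between -0.79 and 0.35.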

How the data were processed

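The values were read counts per gene, 1 deposited table for each of 12 LVs in 4 groups of 3 animals. Per the labels and the methods of the study, the authors trimmed the reads (Trimmomatic), aligned them to GRCm38 (STAR 2.5.2b), counted them (HTSeq) and tested with DESeq2. The strand setting is not given in the sources used here, and a second, size-normalized table per sample was not used here. Tallies outside genes were kept out of library sizes. Their shares are of the assigned counts and all tallies together. They came to 12.37% to 17.02% for reads aligned to several places, 3.24% to 3.49% for ambiguous reads and 3.34% to 4.61% for reads outside genes. Symbols and coordinates came from GENCODE M21.

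Counts were tested in 1 fit of all 12 samples with edgeR 4.0.16 (R 4.3.3; TMM, filterByExpr by group with a minimum count of 10, quasi-likelihood test, Benjamini-Hochberg adjustment over the 14706 genes tested, threshold 0.1). The biological coefficient of variation was 13.7%. DESeq2 1.42.0 and limma-voom (limma 3.58.1, sample quality weights) were alternatives, with DESeq2 size factors in edgeR, no low-count filter, a filter on the mean, a fit of only the groups compared, and each animal left out in turn. The test was checked on simulated counts, with known changes only in genes of higher depth and the same spread for all genes. That check does not cover the members with low counts. p-values rest on the spread between animals of the same group, pooled over the groups in the fit and moderated over genes. The study describes the 3 animals of a group as coming from different litters. The edgeR SE was the absolute log2 fold change divided by the square root of the F statistic.

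Members were the 39 given genes. The 3 members with the smallest p in each comparison, the 3 with the highest mean CPM, *Mki67*, *Top2a*, *Hif1a* and the first gene by p of each of 4 related lists were named by rule; other members are described by role. The members and lists were chosen with earlier results of these data known. The split into mitotic and replication genes joins these roles and was made after their values were seen.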

Additional observations from a re-analysis of the deposited data

Results flagged for a closer look

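For *Mcm3* and *Tyms*, every diabetes-exposed animal lay below the mean of the unexposed animals in *Wt* and above it in *Hif1a*+/- LVs. All 39 members were searched for such opposite moves, and their share over all tested genes was not counted, so the pattern cannot be set against a background. *Mcm3* was at 7.22, 11.0 and 7.89 CPM in the *Wt* non-diabetic animals, so that its mean there rested partly on 1 animal. The difference of these responses, *Hif1a*+/- minus *Wt*, on the log2(CPM + 0.5) scale was 0.41 for *Mcm3*, from -0.08 in *Wt* and 0.34 in *Hif1a*+/-, and 0.60 for *Tyms*, from -0.24 and 0.36. The interaction itself did not pass the threshold in edgeR for either gene (adjusted p = 0.998 for both). Without animal 72 it was 0.23 ± 0.24 for *Mcm3* and 0.63 ± 0.31 for *Tyms*. Groups of 3 are too small for a test of single outlying animals.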

How the results depend on the processing

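The alternatives gave 0 members called except edgeR with no low-count filter, which called 1 member in each of 4 tests: *Mcm6* at 0.63 (adjusted p = 0.0921) in *Hif1a*+/- diabetic against *Hif1a*+/- non-diabetic, *Mcm5* at 0.62 (adjusted p = 0.0893) against *Wt* non-diabetic, *Ube2c* at -0.998 (adjusted p = 0.075) in *Wt* diabetic against *Wt* non-diabetic, and 1 member for any difference among the 4 groups. The numbers of all genes called by this setting in the comparisons of 2 groups are given in the next paragraph. For the joint test its share over all genes was not counted, so that call cannot be set against a background. With each animal left out in turn, 0 members were called in every comparison. For the 3 members with the smallest p in each comparison no value reversed, and 330 of 333 kept their direction and side of the threshold. The log2 fold changes of *Mki67* and *Top2a* were not part of that count and did change sign, *Mki67* from 0.18 to -0.21 against *Wt* diabetic without animal 80 and from -0.12 to 0.28 against *Hif1a*+/- non-diabetic without animal 44, and *Top2a* for diabetes from -0.13 to 0.04 without animal 80. The median of the members did change sign with the animal left out, between -0.18 and 0.33 for *Hif1a*+/- diabetic against *Hif1a*+/- non-diabetic, -0.04 and 0.44 against *Wt* diabetic, -0.27 and 0.01 against *Wt* non-diabetic, -0.32 and 0.03 for diabetes and -0.22 and 0.12 for genotype, and kept it for the interaction (0.12 to 0.60) and the 2 remaining comparisons.

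Over all genes, edgeR called 0 in each comparison. The setting with no filter tested the 27093 genes with at least 1 count, and its numbers below are out of these. For *Hif1a*+/- diabetic against *Hif1a*+/- non-diabetic, DESeq2 called 201, no filter 592, limma-voom 937, only the groups compared 101, and leaving out 1 animal 0 to 38, the 38 without animal 72. Against *Wt* diabetic these were 24, 220 and 1 in that order, with 0 to 2 for 1 animal left out, and against *Wt* non-diabetic 68, 445 and 2, with 0 to 1. For *Wt* diabetic against *Wt* non-diabetic DESeq2 called 4 and no filter 129, for *Hif1a*+/- non-diabetic against *Wt* non-diabetic 1 and 33, and for the interaction no filter 78, with 0 to 1 for 1 animal left out. For diabetes DESeq2 called 203, no filter 593 and limma-voom 39, with 0 to 21 for 1 animal left out, the 21 without animal 50. For genotype DESeq2 called 7 and no filter 77, with 0 to 2. The cause was not tested. No paired analysis was possible because the animal numbers are not shared between groups. With 2 to 1349 counts per member and library, changes as small as those given cannot be resolved for the lowest genes.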
